A study of Drosophila melanogaster with 33 samples.

Results

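Cuticle protein genes of Drosophila melanogaster were followed in larval brains and in serially transplanted tumours that carry mutant alleles of l(3)mbt, the gene lethal (3) malignant brain tumour, which encodes a chromatin protein. The genes were chosen by symbol alone, as all those in the array annotation that start with Cpr, Lcp, Ccp84, Pcp, Edg, Acp65A or Twdl. Of 11982 genes with a probe set of their own, 105 were chosen. A log2 value over 4 on at least 3 of the 33 arrays was reached by 28 of these 105 and by 8264 of all genes, and these were tested.

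The mutant brains were homozygous for l(3)mbt[ts1], homozygous for l(3)mbt[E2] or transheterozygous for both alleles (ts1/E2). Brains of ts1, E2 and ts1/E2 larvae came from 29 °C, the restrictive temperature, and brains of ts1 and E2 larvae also from 17 °C. The tumours derived from ts1 brains and had been passed through adult hosts for 1, 5 or 10 rounds of allograft culture, so that host tissue could be carried along. The control was w[1118] (WT) larval brain, whose temperature the labels do not give. Every group had 3 arrays, except ts1 at 29 °C and WT with 6 each. The ts1 brains at 29 °C (replicates 1 to 3), those at 17 °C and WT replicates 4 to 6 were run at the EMBL site. All other arrays were run at the IRB site, which has its own ts1 brains at 29 °C (replicates 4 to 6) and its own WT (replicates 1 to 3). The E2, ts1/E2 and tumour comparisons with WT thus share the same 3 WT arrays. Whether the arrays of a group hold separate pools of larvae or separate tumour lines is not given in the sources used here, so the p-values here reflect the spread among these arrays, which may be technical.

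Insect cuticle is a layered sheet of chitin fibres and proteins that epidermal and tracheal cells secrete at each moult under the control of ecdysone. Most of its proteins belong to a few families. The Cpr and Lcp proteins share the Rebers and Riddiford motif, which binds chitin. The Tweedle proteins (Twdl) form a second family, named for mutants with a short and stout body. Acp65Aa was named as an adult cuticle protein, Pcp as a pupal one, and Edg genes for their dependence on ecdysone. Brain is not a tissue known for making cuticle, although dissected brains can carry pieces of trachea, discs and ring gland.

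Most cuticle genes had no signal above background anywhere. Of the 105, 61 never exceeded a log2 value of 4 on any array and 16 did so on 1 or 2 arrays. The share that passed was 26.7%, against 69.0% of all genes. By family, 17 of 66 Cpr genes, 5 of 7 Lcp genes, 4 of 24 Twdl genes, Pcp and Acp65Aa passed, and none of the 3 Ccp84 or 3 Edg genes did. The larval cuticle protein gene Lcp65Aa and the RR-motif gene Cpr47Ed lay just inside the threshold, over 4 on 3 arrays with highest values of 7.58 and 6.34. Just outside it, Cpr65Eb and Cpr49Ag were over 4 on 2 arrays, with highest values of 7.08 and 6.88. A gene that passed only through the group in which it was high had to differ, so the counts below describe the 28 genes and are not set against the 77 others.

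Within a site the deposited values can be compared. Across sites they had been centred so that the WT means agree for each probe set, which moves the background level: Cpr78E sat near 0.68 at IRB wherever it was low, and TwdlK near 2.78 at EMBL. All differences below were therefore taken within a site, as differences of log2 means with a standard error (SE), from a limma fit over all 8264 genes. A call needs an adjusted p under 0.05 over all these genes and a log2 difference of at least 1. Values below about 4 are near background, and a difference from such a value has an uncertain size. In such bulk samples fewer cells of a type and less RNA per cell cannot be told apart.

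Several IRB arrays stood apart by carrying many cuticle genes at once. The number of the 105 genes over 4 was 5 to 8 on the WT arrays and 6 to 9 on the mutant EMBL arrays. It was 31, 9 and 13 in E2 brains at 29 °C, 16, 11 and 23 in the IRB ts1 brains at 29 °C, 6, 18 and 16 in ts1/E2 brains, and 8, 18 and 13 in E2 brains at 17 °C. In tumours it was 8, 12 and 21 at round 1, 11, 10 and 18 at round 5, and 14, 9 and 11 at round 10. So 1 array of a group was often well above the others. In each of the 7 mutant and tumour groups at IRB, 1 of the 3 arrays was the highest for 16 to 23 of the 28 tested genes, while the same arrays were the highest for 21.4% to 30.3% of all tested genes. In all 7 groups that array also had the highest array median of its group. This median was 3.98 in E2 brains at 17 °C and 4.05, 3.88 and 3.64 in tumours of rounds 1, 5 and 10. At 29 °C it was 4.16 in ts1 and 4.06 in ts1/E2 brains. E2 replicate 1 at 29 °C was the highest of its group for 23 of 28, with the highest median of the series (4.62, other arrays 3.31 to 4.16). At EMBL, ts1 replicate 2 at 17 °C was the highest of its group for 19 of 28, but also for 44.5% of all tested genes. No other EMBL array exceeded 14 of 28. The part of the array-wide level in the cuticle gene counts was not tested. For 16 of the 28 genes the highest array was the shared one of the group in 6 or 7 of the 7 groups. TwdlG (2 of 7), Cpr66D (1 of 7), Cpr60D, Pcp and Cpr78E (0 of 7 each) did not follow it. The shared array was picked as the one highest for most of these same 28 genes. Part of this agreement, and of the 16 to 23 genes per group, was thus built in. No like count was made over all tested genes. Muscle genes, 3 of 6 markers on the array, were highest on the shared array in E2 brains at 29 °C but not in round 1 tumours. Their mean level was 7.80, 4.21 and 4.88 in E2 brains at 29 °C. It was 5.60, 7.13 and 5.69 in round 1 tumours, where replicate 3 carried most cuticle genes, against 3.97, 3.99 and 4.73 in IRB WT. In the other mutant and tumour groups at IRB it ranged from 3.51 to 6.69. What the shared arrays have in common beyond these values was not tested.

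**Figure D1:**
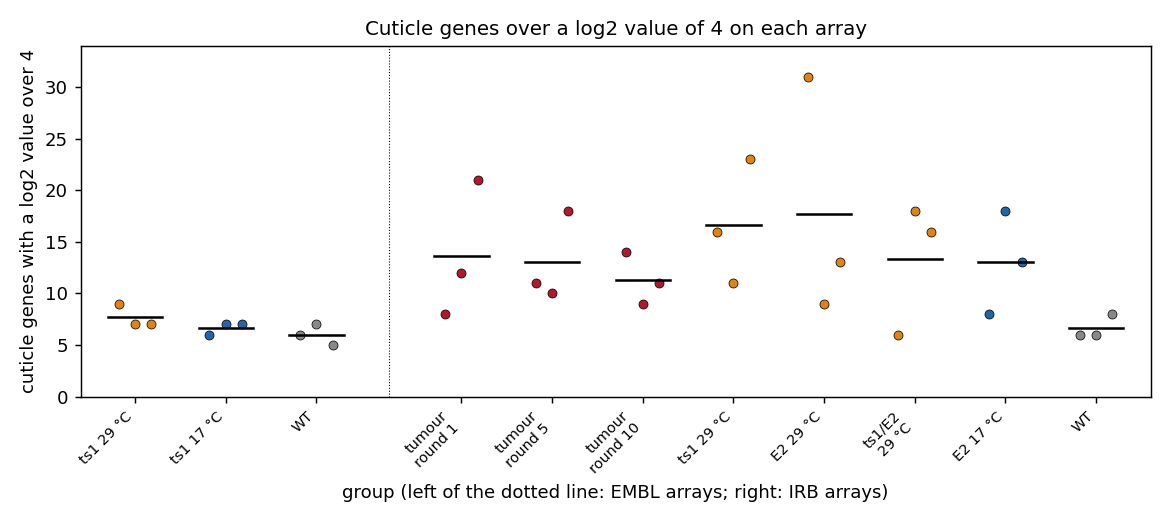
Number of the 105 cuticle genes with a deposited log2 value over 4 (vertical axis) on each array, by group; points are arrays in replicate order and bars are group means, with EMBL left and IRB right of the dotted line. WT arrays hold 5 to 8 such genes, and E2 replicate 1 at 29 °C holds 31.

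Of the 28 tested genes, 15 were called in at least 1 of the 15 comparisons. The ts1 brains at 29 °C differed from WT in 3 cuticle genes at EMBL, where 6.76% of all tested genes were called, and in 4 at IRB, where 8.79% were called. E2 brains at 29 °C differed from WT in 7 cuticle genes (9.06% of all tested genes) and ts1/E2 brains in 5 (5.87%). At 17 °C, E2 brains differed from WT in 2 (4.27%) and ts1 brains in 0 by limma (1.19%), with 2 at an unadjusted p under 0.05. Tumours differed from WT in 8 cuticle genes at round 1 (27.0%), 5 at round 5 (26.6%) and 6 at round 10 (25.8%). These shares of 28 in tumours (28.6%, 17.9% and 21.4%) lie near or below the background of all genes, so the tumour counts are no result about cuticle genes as a class, and the named genes carry the description.

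Between temperatures, E2 brains at 29 °C differed from those at 17 °C in 7 cuticle genes (6.52% of all tested genes), and ts1 brains at EMBL in 4 (2.26%). Round 1 tumours differed from the IRB ts1 brains at 29 °C in 8 (26.2%), and round 10 from round 1 tumours in 3 (5.91%). Single arrays moved some counts by over 1.5 times: E2 at 29 °C against WT had 17 without E2 replicate 2, and ts1/E2 had 2 without ts1/E2 replicates 2 or 3 and 3 without WT replicate 1. E2 at 29 °C against 17 °C had 4 without E2 replicate 1 at either temperature and 3 without E2 replicate 3 at 17 °C. E2 at 17 °C had 0 without E2 replicate 3 or WT replicate 2, and 1 without E2 replicate 2 or WT replicates 1 or 3.

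The median log2 difference of the 28 genes was 1.62 in E2 brains at 29 °C against WT, where that of all tested genes was -0.21, and 1.14 in the IRB ts1 brains, where that of all genes was -0.14. The E2 value rests much on replicate 1: the mean level of the 28 genes was 6.74, 3.85 and 4.35 in E2 brains at 29 °C, against 3.49 to 3.79 in IRB WT. The median was 0.79 in ts1/E2 brains, 0.65 in E2 brains at 17 °C and 0.35 to 0.56 in tumours, all against WT, and -0.68 in round 1 tumours against the IRB ts1 brains. At EMBL the median of the 28 genes was 0.00 in ts1 brains at 29 °C against WT. Genes could pass the filter through mutant or tumour arrays in which they were high, which by itself raises a median against WT. These medians thus describe the 28 genes and are no result about cuticle genes as a class.

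**Figure D2:**
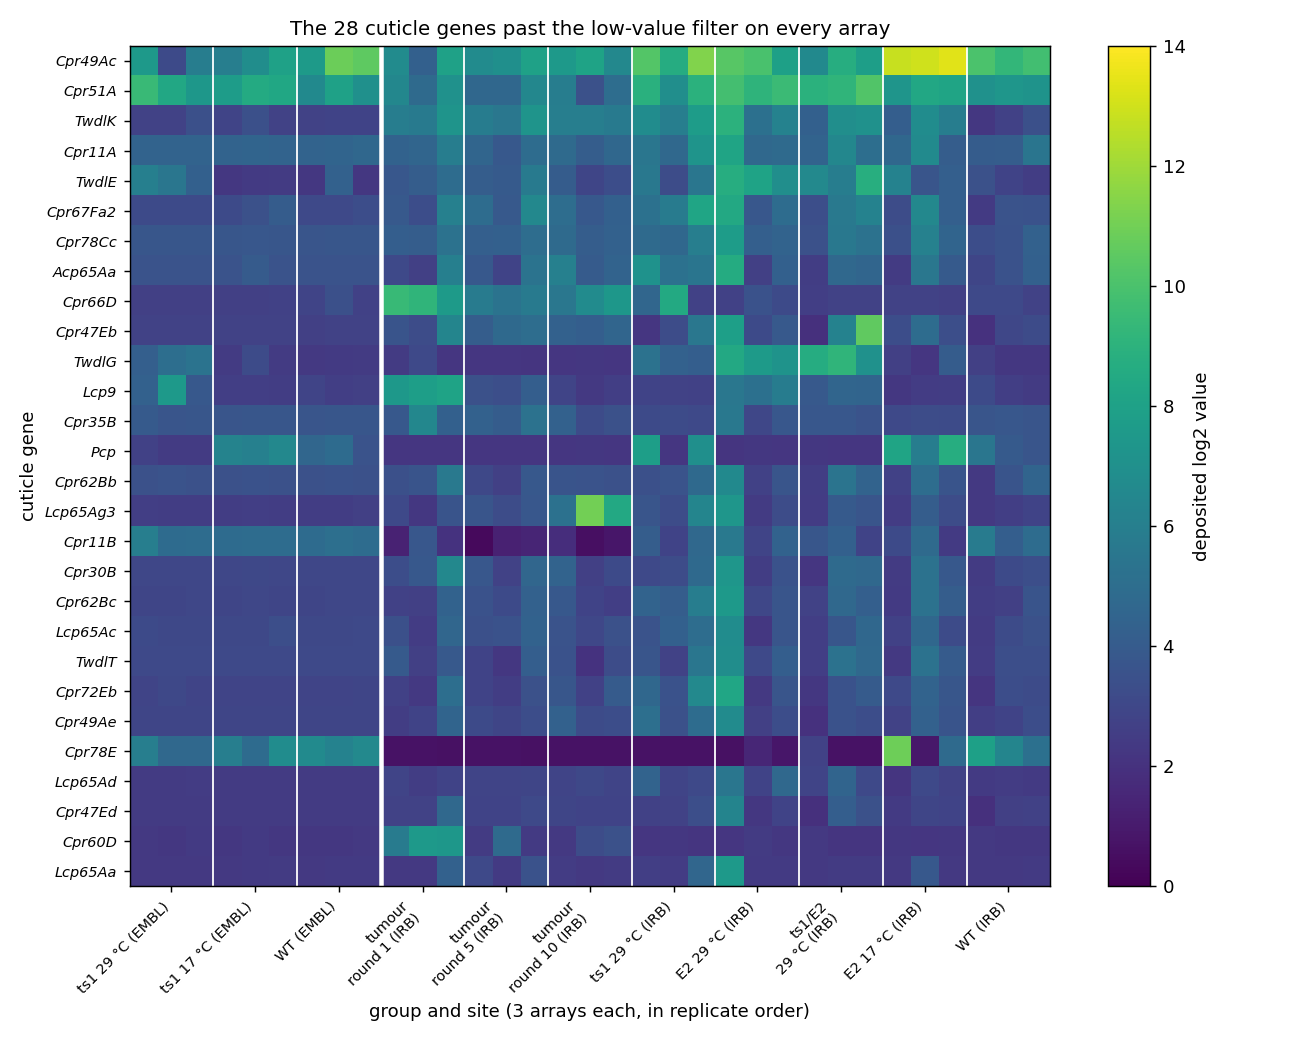
Deposited log2 values (colour, 0 to 14) of the 28 tested cuticle genes (rows, by mean over all arrays) on all 33 arrays (columns, 3 per group and site). Cpr49Ac and Cpr51A have the highest means, and many rows share bright single columns such as E2 replicate 1 at 29 °C.

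TwdlG, a Tweedle gene measured by probe set 1630596_at, was higher at 29 °C in every mutant genotype and at both sites. It read 8.47, 7.65 and 7.17 in E2 brains, 8.67, 9.14 and 7.07 in ts1/E2 brains and 5.28, 4.37 and 4.18 in the IRB ts1 brains, against 2.63, 2.28 and 2.25 in IRB WT. At EMBL it read 4.25, 5.04 and 5.33 in ts1 brains, against 2.33, 2.35 and 2.46 in WT. Each mutant group lay wholly above its WT arrays. The log2 difference was 5.38 ± 0.46 in E2 (adjusted p = 5.47e-09), 5.91 ± 0.46 in ts1/E2 (9.22e-10), 2.23 ± 0.46 in ts1 at IRB (2.27e-03) and 2.49 ± 0.46 in ts1 at EMBL (7.11e-04). With values under 4 set to 4, an alternative chosen after the data were seen, the ts1 differences shrank to 0.61 at IRB and 0.87 at EMBL and were no longer called, while those of E2 and ts1/E2 were.

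At 17 °C TwdlG stayed near background, at 2.67, 2.24 and 4.06 in E2 brains and 2.43, 3.21 and 2.46 in ts1 brains. The difference of 29 °C from 17 °C was 4.78 ± 0.46 in E2 (adjusted p = 7.98e-08) and 2.17 ± 0.46 in ts1 (6.19e-03, and 0.87 and not called with values under 4 set to 4). The temperature effect of ts1 at EMBL minus that of E2 at IRB was -2.61 ± 0.65, which was not called (adjusted p = 0.0889). No cuticle gene was called in that contrast by limma (0.375% of all tested genes), with 3 at an unadjusted p under 0.05, and 1 was called without E2 replicate 2 or 3 at 17 °C or E2 replicate 2 at 29 °C. In tumours TwdlG was near background, with 2.41, 3.09 and 2.23 at round 1 and 2.17 to 2.25 at rounds 5 and 10. Round 1 tumours minus IRB ts1 brains at 29 °C was -2.03 ± 0.46 (adjusted p = 1.28e-03), a call that this floor also ended (-0.61). Its neighbour TwdlF, from the same family, stayed between 2.18 and 2.33 on all arrays, so the signal was not shared by the adjoining gene.

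TwdlE, another Tweedle gene (1628835_at), was high in the 2 genotypes with the E2 allele. It read 8.71, 8.10 and 6.93 in E2 brains at 29 °C and 6.61, 5.94 and 8.79 in ts1/E2 brains, against 3.47, 2.84 and 2.55 in IRB WT. These groups did not overlap WT, and the differences were 4.96 ± 0.77 (adjusted p = 9.06e-05) and 4.16 ± 0.77 (7.14e-04). The ts1 brains at 29 °C were less clear. They read 6.02, 5.51 and 4.29 at EMBL, against 2.25, 4.33 and 2.28 in WT, a difference of 2.32 ± 0.77 that missed the threshold (adjusted p = 0.0589), and 5.59, 3.25 and 5.49 at IRB (1.82 ± 0.77, adjusted p = 0.138). Against 17 °C, where ts1 brains read 2.25, 2.38 and 2.43, the EMBL ts1 brains at 29 °C were 2.92 ± 0.77 higher (adjusted p = 0.0388). Leaving out ts1 replicate 1 or 2 at 29 °C, or any of the 17 °C arrays, ended that call. E2 brains at 29 °C stood 3.19 ± 0.77 above those at 17 °C (6.23, 3.72 and 4.23, adjusted p = 0.0104), a call lost without E2 replicate 1 at 29 °C and without E2 replicates 2 or 3 at 17 °C.

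TwdlK (1629531_at) gave a site-bound picture. All mutant and tumour groups at IRB lay above the IRB WT arrays (2.26, 2.73 and 3.41). The values were 8.97, 5.18 and 6.22 in E2 brains at 29 °C, 6.82, 5.99 and 7.72 in ts1 brains at 29 °C, 4.29, 6.89 and 7.08 in ts1/E2 brains and 4.19, 6.79 and 5.94 in E2 brains at 17 °C. Tumours read 5.95, 5.71 and 7.24 at round 1, 5.90, 5.57 and 7.22 at round 5, and 5.97, 5.97 and 5.76 at round 10. All 7 comparisons with WT were called, with differences from 2.84 ± 0.78 in E2 brains at 17 °C (adjusted p = 0.0325) to 4.05 ± 0.78 in ts1 brains at 29 °C (1.22e-03).

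At EMBL the same ts1 genotype at 29 °C read 2.78, 2.78 and 3.43, against 2.78, 2.80 and 2.82 in WT, a difference of 0.20 ± 0.78. The ts1 effect at IRB minus that at EMBL was 3.85 ± 1.097 (adjusted p = 0.0479), and TwdlK was the 1 cuticle gene called in that contrast (3.68% of all tested genes). With each of the 12 arrays left out in turn, TwdlK kept that call only without ts1 replicate 5. The count of cuticle genes called was then 4 without ts1 replicate 5, 2 without ts1 replicate 1 and 0 without ts1 replicate 4 or WT replicates 1, 2, 3, 5 or 6. TwdlK was highest on the array that carried most cuticle genes in 6 of the 7 mutant and tumour groups at IRB. It is itself among the tested genes by which that array was picked. The part of that shared array pattern in the TwdlK differences was not tested. In E2 brains at 17 °C the call was also lost without E2 replicates 2 or 3 or WT replicates 1 or 2, and in ts1/E2 brains without ts1/E2 replicates 2 or 3. A shared site term ended the calls in ts1/E2 brains (2.33), E2 brains at 17 °C (1.88) and round 10 tumours (2.14), as did setting values under 4 to 4. The neighbouring gene TwdlO did not exceed 2.28 on any array.

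**Figure D3:**
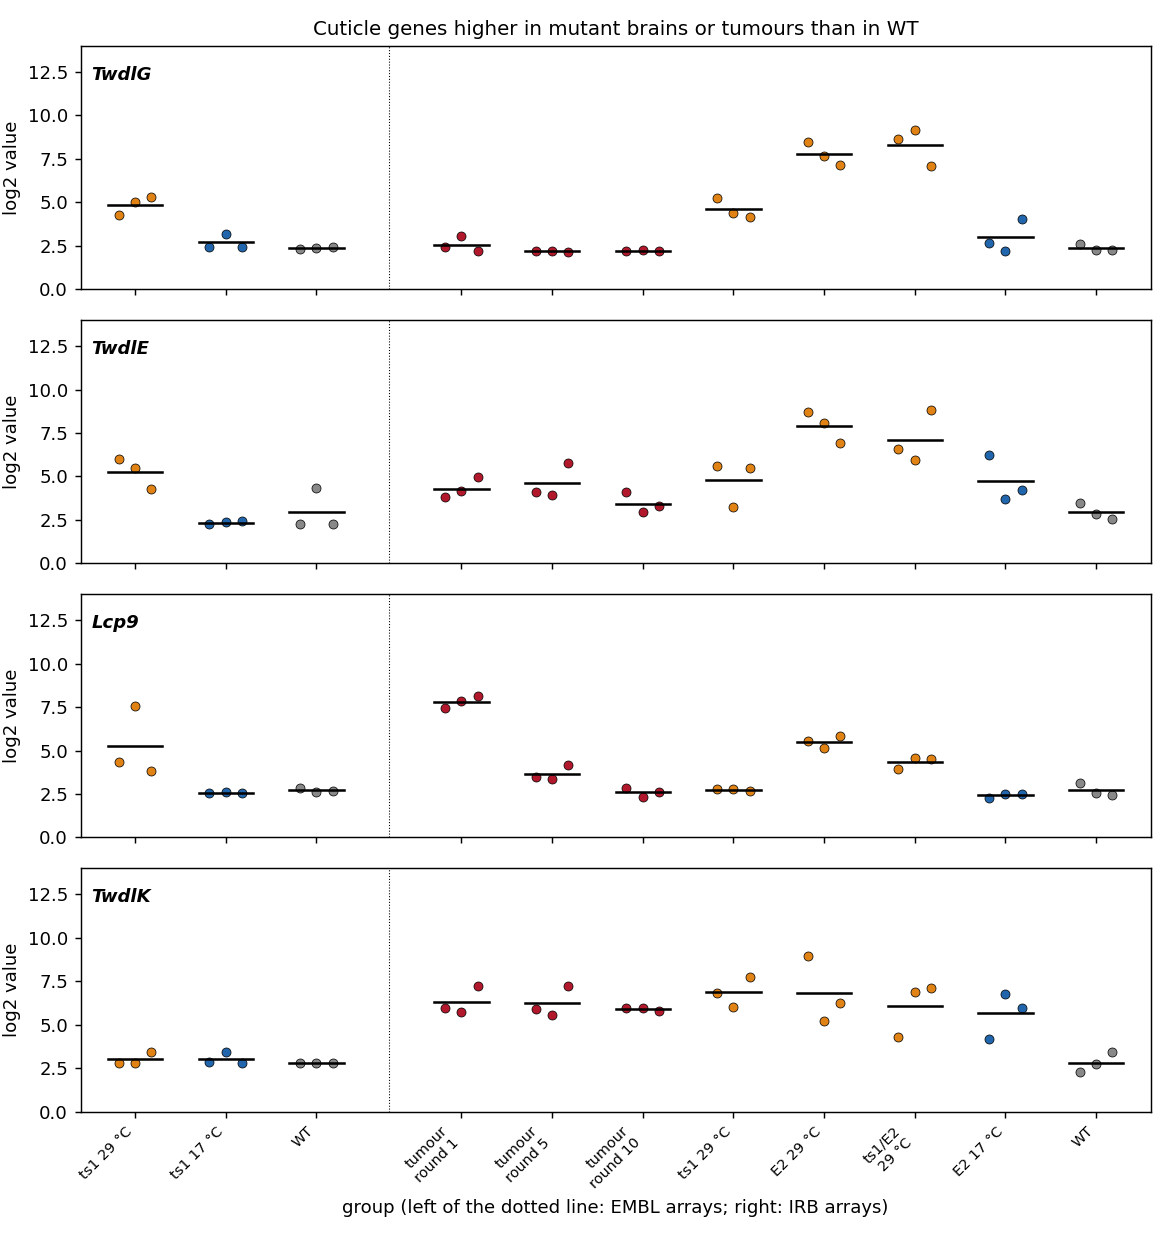
Deposited log2 values (vertical axis, near background below about 4) of TwdlG, TwdlE, Lcp9 and TwdlK on each array; points are arrays, bars are group means, EMBL left and IRB right of the dotted line. TwdlG is above WT in all mutant brains from 29 °C, Lcp9 is highest in round 1 tumours (7.47 to 8.12), and TwdlK is above WT in every other IRB group and at 2.78 to 3.43 in EMBL ts1 brains at 29 °C.

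Lcp9, a larval cuticle protein gene (1627051_at), was high in round 1 tumours and in some 29 °C brains. It read 7.47, 7.83 and 8.12 in round 1 tumours, against 3.12, 2.58 and 2.41 in IRB WT (difference 5.10 ± 0.52, adjusted p = 2.90e-08). The 3 tumour arrays lay within 1 log2 unit of each other and far above WT. The signal was lower in later rounds, with 3.47, 3.34 and 4.17 at round 5 and 2.86, 2.35 and 2.60 at round 10. Round 10 minus round 1 was -5.20 ± 0.52 (adjusted p = 1.81e-07).

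In brains Lcp9 read 5.56, 5.14 and 5.85 in E2 at 29 °C, 2.81 ± 0.52 above WT (adjusted p = 8.12e-04) and 3.08 ± 0.52 above E2 at 17 °C (2.28, 2.51 and 2.53, adjusted p = 3.44e-04). The ts1/E2 brains lay between (3.93, 4.56 and 4.49), 1.62 ± 0.52 above WT and short of the threshold (adjusted p = 0.0623). Among ts1 brains at 29 °C the sites gave unlike values. At EMBL they read 4.35, 7.55 and 3.84, against 2.86, 2.60 and 2.66 in WT (difference 2.54 ± 0.52, adjusted p = 2.25e-03, and 1.39 without ts1 replicate 2). They were also 2.67 ± 0.52 above the 17 °C brains (adjusted p = 3.11e-03, and 1.52 without ts1 replicate 2). Both calls were lost with a shared site term (1.29 against WT and 2.04 against 17 °C), in a fit of the EMBL arrays alone and with values under 4 set to 4 (1.30 each), and this floor also ended the E2 call against 17 °C (1.52). At IRB they read 2.79, 2.77 and 2.69, within the WT range. The contrast between the sites was -2.50 ± 0.74 and just missed the threshold (adjusted p = 0.0562). Round 1 tumours stood 5.05 ± 0.52 above these IRB ts1 brains (adjusted p = 6.95e-08).

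The Lcp65A genes lie in a cluster of larval and adult cuticle genes. Lcp65Ag3 (1627388_at) was high in round 10 tumours, with 5.23, 11.003 and 8.46, against 2.34, 2.57 and 2.83 in IRB WT. All 3 tumour arrays were above WT but far apart from each other, and the difference was 5.65 ± 1.05 (adjusted p = 1.37e-04). Round 1 tumours read 3.11, 2.26 and 3.62, and round 10 minus round 1 was 5.24 ± 1.05 (adjusted p = 1.84e-03). Outside round 10 its highest values were 7.35 on E2 replicate 1 at 29 °C and 6.36 on ts1 replicate 6, both arrays with many cuticle genes over 4. The near-identical copies Lcp65Ag1 and Lcp65Ag2 share a probe set that read 2.60, 9.02 and 6.42 on the same round 10 arrays, against 2.27, 2.26 and 2.25 in IRB WT. The order of the 3 tumours was thus the same for both probe sets, and the split of signal among these copies is uncertain.

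Lcp65Ad read 5.52, 2.84 and 4.72 in E2 brains at 29 °C, against 2.38, 2.51 and 2.41 in WT, a difference of 1.93 ± 0.46 (adjusted p = 8.86e-03). It was 1.69 ± 0.46 above E2 at 17 °C (2.15, 3.09 and 2.78, adjusted p = 0.0241), with overlapping groups. Both calls ended without E2 replicate 1 at 29 °C, with differences of 1.35 and 1.11. The second of them was also lost without E2 replicate 3 at 29 °C and without E2 replicates 1 or 3 at 17 °C. Lcp65Ac, the other Lcp gene among the highest of its family, was called in no comparison and ranged from 2.26 to 6.82. Acp65Aa, at the end of the cluster, was called nowhere either. It read 7.15, 5.22 and 5.42 in the IRB ts1 brains at 29 °C and 8.59 on E2 replicate 1, against 2.91, 3.55 and 4.29 in IRB WT.

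Cpr66D, an RR-motif gene (1631400_at), was higher in tumours of every round than in WT. It read 9.41, 9.18 and 7.63 at round 1, 5.83, 5.35 and 5.78 at round 5 and 5.57, 6.77 and 7.43 at round 10, against 3.11, 3.08 and 2.77 in IRB WT. No tumour array overlapped WT. The differences were 5.75 ± 0.79 (adjusted p = 2.40e-06), 2.67 ± 0.79 (9.61e-03) and 3.60 ± 0.79 (7.65e-04). With values under 4 set to 4 the round 5 difference was 1.66 and not called. Round 10 minus round 1 was -2.15 ± 0.79 and not called (adjusted p = 0.118).

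The ts1 brains were uneven in Cpr66D. The IRB ts1 brains at 29 °C read 4.60, 8.52 and 2.69, and their mean difference from WT of 2.28 ± 0.79 missed the threshold (adjusted p = 0.0629). Round 1 tumours stood 3.47 ± 0.79 above them (adjusted p = 1.35e-03), although ts1 replicate 5 overlapped the tumours, and the difference was 5.10 without it and 2.18 without ts1 replicate 6. At EMBL the ts1 brains read 2.66 to 2.67, and all E2 and ts1/E2 brains stayed between 2.60 and 3.53.

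Cpr60D (1630538_at), also with the RR motif, was high in round 1 tumours and over 4 on 1 other array. It read 5.84, 7.58 and 7.44 there, against 2.35, 2.28 and 2.26 in IRB WT (4.66 ± 0.43, adjusted p = 5.77e-09). The IRB ts1 brains at 29 °C read 2.24, 2.25 and 2.17, and round 1 tumours stood 4.73 ± 0.43 above them (adjusted p = 9.63e-09). Round 5 tumours read 2.43, 4.83 and 2.39 and round 10 tumours 2.34, 3.26 and 3.45, and round 10 minus round 1 was -3.94 ± 0.43 (adjusted p = 8.41e-07). Cpr35B read 3.86, 6.51 and 4.31 in round 1 tumours, against 3.17, 3.19 and 3.07 in the IRB ts1 brains at 29 °C, a difference of 1.75 ± 0.51 (adjusted p = 9.87e-03). Without round 1 replicate 2 it was 0.94 and no longer called.

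Markers of host tissue were also high in round 1 tumours. The yolk protein genes Yp1, Yp2 and Yp3, which adult female fat body and ovary express, were all higher in round 1 tumours than in WT (3 of 3). Their mean log2 level was 10.60, 9.65 and 5.77 in round 1 tumours, 3.78, 2.65 and 2.90 at round 5 and 3.61, 6.07 and 6.28 at round 10, against 2.55, 2.78 and 3.11 in IRB WT. All 3 were called lower in round 10 than in round 1 tumours, as Lcp9 and Cpr60D were. Of all tested genes, 27.0% were called in round 1 tumours against WT and 5.91% in round 10 against round 1. Within round 1, replicate 3 had the lowest yolk level, while its Lcp9 value (8.12) and Cpr60D value (7.44) were as high as in the other replicates. Round 10 replicates 2 and 3 had a higher yolk level than it (6.07 and 6.28). Their Lcp9 and Cpr60D values were below those of every round 1 tumour. Cpr66D had the same order of arrays as the yolk level within each of the 3 rounds. At round 5, where the yolk level was 2.65 to 3.78, it read 5.35 to 5.83. The part of host tissue in the values of these genes was not tested.

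**Figure D4:**
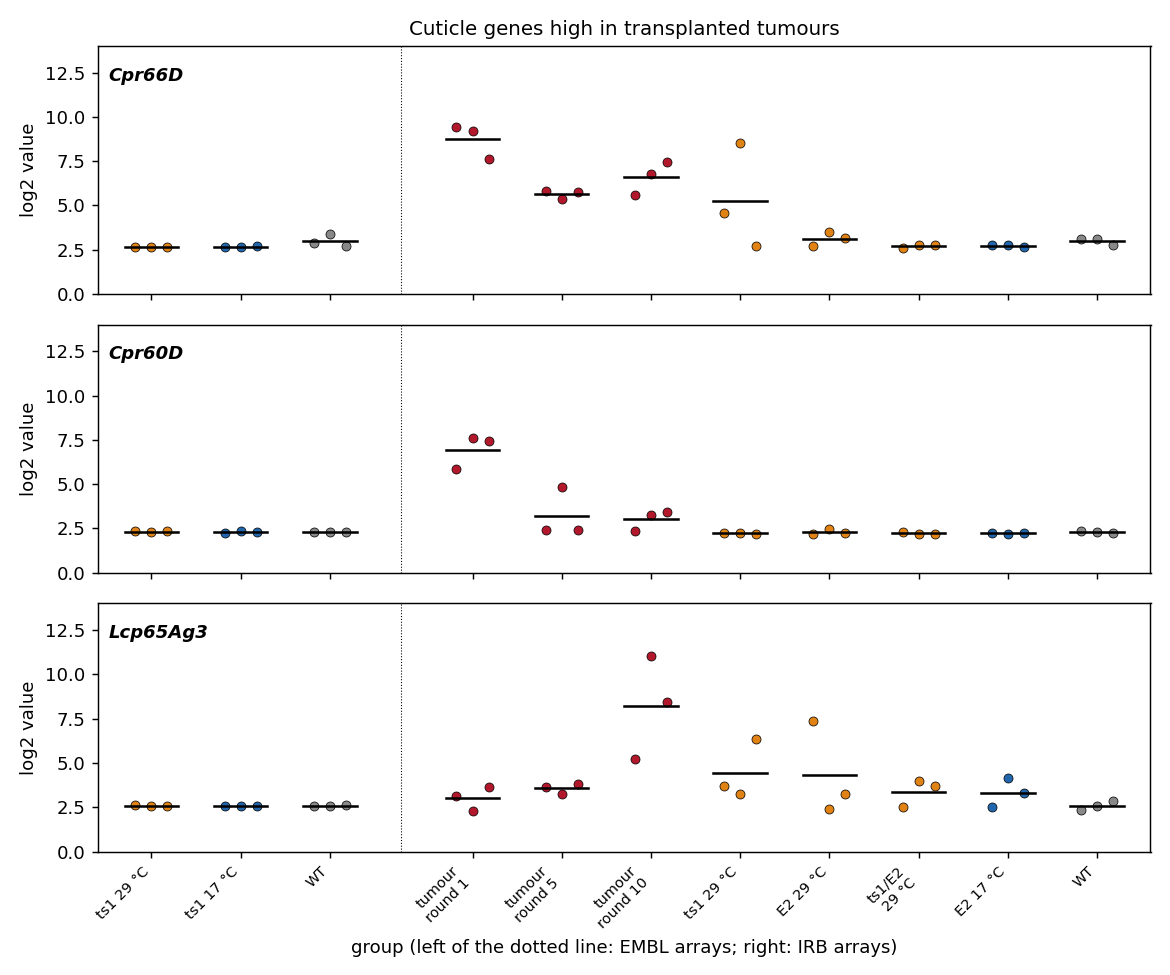
Deposited log2 values (vertical axis, near background below about 4) of Cpr66D, Cpr60D and Lcp65Ag3 on each array; points are arrays, bars are group means, EMBL left and IRB right of the dotted line. Cpr66D lies above WT at all 3 tumour rounds, Cpr60D is high at round 1 (5.84 to 7.58) and Lcp65Ag3 at round 10 (5.23 to 11.003).

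Pcp, a pupal cuticle protein gene (1623092_at), is nested within the purine synthesis gene Gart. It was lower at 29 °C than at 17 °C in E2 brains and in the EMBL ts1 brains. It read 2.18, 2.27 and 2.24 in E2 brains at 29 °C, against 8.18, 5.94 and 8.73 at 17 °C (difference -5.38 ± 0.85, adjusted p = 1.39e-04). The EMBL ts1 brains read 2.70, 2.45 and 2.41 at 29 °C, against 6.24, 6.09 and 6.56 at 17 °C (-3.77 ± 0.85, adjusted p = 0.0106). In both comparisons the groups were far apart. The IRB ts1 brains at 29 °C, which have no 17 °C group at their site, did not all share the low values, as given below. The temperature effect of ts1 minus that of E2 was 1.61 ± 1.20, which missed the threshold (adjusted p = 0.770), and with a shared site term the ts1 effect was -2.98 and not called. WT lay between, with 5.49, 3.98 and 3.69 at IRB and 4.63, 4.92 and 3.61 at EMBL.

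Against WT, Pcp was 3.23 ± 0.85 higher in E2 brains at 17 °C (adjusted p = 0.0262), a call that ended without E2 replicates 1 or 3 or WT replicates 2 or 3. It was at 2.20 to 2.26 in ts1/E2 brains and in all tumours, and called lower than WT only in round 1 tumours (-2.17 ± 0.85, adjusted p = 0.0490), where leaving out any of the 6 arrays ended the call. Rounds 5 and 10 differed from WT by -2.17 and -2.15, with adjusted p of 0.0505 and 0.0532. The IRB ts1 brains at 29 °C split, with 7.84, 2.21 and 6.997, and round 1 tumours minus these was -3.47 ± 0.85 (adjusted p = 2.63e-03) with overlapping groups, or -5.20 without ts1 replicate 5. On the same 3 ts1 arrays the ecdysone-induced transcription factor gene Sox14 read 8.10, 5.50 and 9.30 and the moulting chitinase gene Cht5 read 5.98, 3.62 and 7.99. The middle array, ts1 replicate 5, was the low one for all 3 genes and the high one for Cpr66D. Other genes of the ecdysone and chitin lists read below went the other way. The ecdysone timing gene ftz-f1 read 7.04, 7.37 and 6.62 and the chitinase gene Cht7 5.25, 9.04 and 5.60, both highest on ts1 replicate 5. What sets this array apart was not tested. Sox14 also fell in E2 brains at 29 °C, with 3.88, 9.93 and 4.70, against 10.83, 11.20 and 11.18 at 17 °C (-4.90 ± 1.09, adjusted p = 5.07e-03). There, E2 replicate 2 kept a high Sox14 value while its Pcp value was as low as the others.

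Cpr78E (1638017_at) was at its IRB background in nearly all mutants and tumours. It read 0.61, 1.49 and 0.85 in E2 brains at 29 °C, 0.68, 0.66 and 0.66 in ts1 brains at 29 °C, 2.74, 0.68 and 0.68 in ts1/E2 brains and 0.63 to 0.69 in all tumours, against 7.93, 6.38 and 5.19 in IRB WT. The 6 differences ran from -5.14 ± 1.29 to -5.83 ± 1.29, with adjusted p from 8.70e-04 to 0.0130. E2 brains at 17 °C spanned the whole range (10.88, 0.89 and 4.86). Larval fat body and salivary glue markers had the same order on these 3 arrays, with fat body at 11.56, 8.64 and 10.67 and glue at 12.29, 8.74 and 10.85. In the other IRB mutant groups and tumours, fat body markers had mean levels of 3.17 to 9.25, against 9.74 to 11.22 in IRB WT, and their part in the Cpr78E values was not tested. The difference of E2 at 29 °C from 17 °C was -4.56 ± 1.29 (adjusted p = 0.0297). It shrank to -1.89 and lost its call without E2 replicate 1 at 17 °C, and the call was also lost without E2 replicate 3 at 17 °C or E2 replicate 1 at 29 °C. At EMBL, ts1 brains at 29 °C read 5.98, 4.73 and 4.74, against 6.70, 6.21 and 6.60 in WT (-1.35 ± 1.29, not called). The contrast between the sites was -4.48 ± 1.83 (adjusted p = 0.156). Leaving out WT replicate 1 ended the calls in E2 and ts1/E2 brains, and leaving out ts1/E2 replicates 2 or 3 ended the one in ts1/E2 brains.

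Cpr49Ac (1631701_a_at) had the highest mean of the 105 genes. It read 10.34, 9.99 and 7.94 in E2 brains at 29 °C, against 12.82, 12.99 and 13.37 at 17 °C (-3.63 ± 1.01, adjusted p = 0.0262). That call was lost without any of the E2 arrays at 17 °C or without E2 replicate 3 at 29 °C. Round 1 tumours read 6.74, 4.31 and 7.99, against 10.02, 9.28 and 9.76 in IRB WT (-3.34 ± 1.01, adjusted p = 0.0116) and 10.23, 8.68 and 11.37 in the IRB ts1 brains at 29 °C (-3.75 ± 1.01, adjusted p = 5.70e-03). Both calls ended without round 1 replicate 2. Rounds 5 and 10 read 6.54 to 8.14 and were not called (adjusted p = 0.0664 and 0.0885). At EMBL the ts1 brains at 29 °C read 7.51, 3.15 and 5.94, against 7.64, 10.87 and 10.54 in WT (-4.16 ± 1.01, adjusted p = 8.93e-03). That call was lost without ts1 replicate 2 or WT replicates 5 or 6, with a shared site term (-1.875) and in a fit of the EMBL arrays alone. Larval fat body markers moved with Cpr49Ac in part. Of 6 listed, Fbp1, Fbp2 and Lsp2 were on the array, and their mean level was 5.81, 4.68 and 4.22 in E2 brains at 29 °C, against 11.56, 8.64 and 10.67 at 17 °C, with all 3 called lower. In the EMBL ts1 brains at 29 °C the fat body mean was 10.78, 4.45 and 8.56, with the low array, replicate 2, also lowest for Cpr49Ac, against 8.30, 11.46 and 11.19 in EMBL WT. The IRB ts1 brains at 29 °C did not show this. Their fat body mean was 3.65 to 4.67, against 9.74 to 11.22 in IRB WT, while Cpr49Ac was not called against WT there. Salivary glue genes, 5 of 5 on the array, had mean levels of 7.12, 4.62 and 4.76 in E2 brains at 29 °C, against 12.29, 8.74 and 10.85 at 17 °C, with 3 of 5 called lower. These fat body and glue counts between temperatures stand beside 6.52% of all tested genes called. The part of either tissue in these differences was not tested.

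Cpr51A (1638869_at) went both ways. It was higher in E2 brains at 29 °C (9.81, 9.12 and 9.56) and in ts1/E2 brains (8.97, 9.18 and 10.18), against 7.09, 7.35 and 7.20 in IRB WT, by 2.28 ± 0.67 (adjusted p = 0.0308) and 2.22 ± 0.67 (0.0410). Each of these calls was lost without any 1 of the WT arrays, both in a fit of the IRB arrays alone, the first also without E2 replicate 1 and the second without ts1/E2 replicates 2 or 3. It was lower in tumours of round 5 (4.68, 4.69 and 6.47) and round 10 (5.96, 3.48 and 4.98), by -1.94 ± 0.67 (adjusted p = 0.0262) and -2.41 ± 0.67 (6.40e-03). The round 5 call was lost without round 5 replicates 1 or 2 or any WT array, and the round 10 call without round 10 replicate 2. Round 1 tumours read 6.46, 4.82 and 7.11, against 8.89, 6.93 and 8.93 in the IRB ts1 brains at 29 °C (-2.12 ± 0.67, adjusted p = 0.0161). These groups overlapped, and the call was lost without round 1 replicate 2 or ts1 replicates 4 or 6.

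Cpr11B (1641746_at) was lower in tumours of every round. It read 1.32, 3.80 and 2.06 at round 1, 0.37, 1.29 and 1.45 at round 5 and 1.82, 0.55 and 0.84 at round 10, against 5.80, 4.20 and 4.95 in IRB WT. No tumour array reached WT, and the differences were -2.59 ± 0.69 (adjusted p = 4.42e-03), -3.95 ± 0.69 (5.86e-05) and -3.91 ± 0.69 (6.82e-05). With values under 4 set to 4, all 3 calls were lost, with a difference of -0.98 in each. The same floor ended the calls of Cpr78E.

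**Figure D5:**
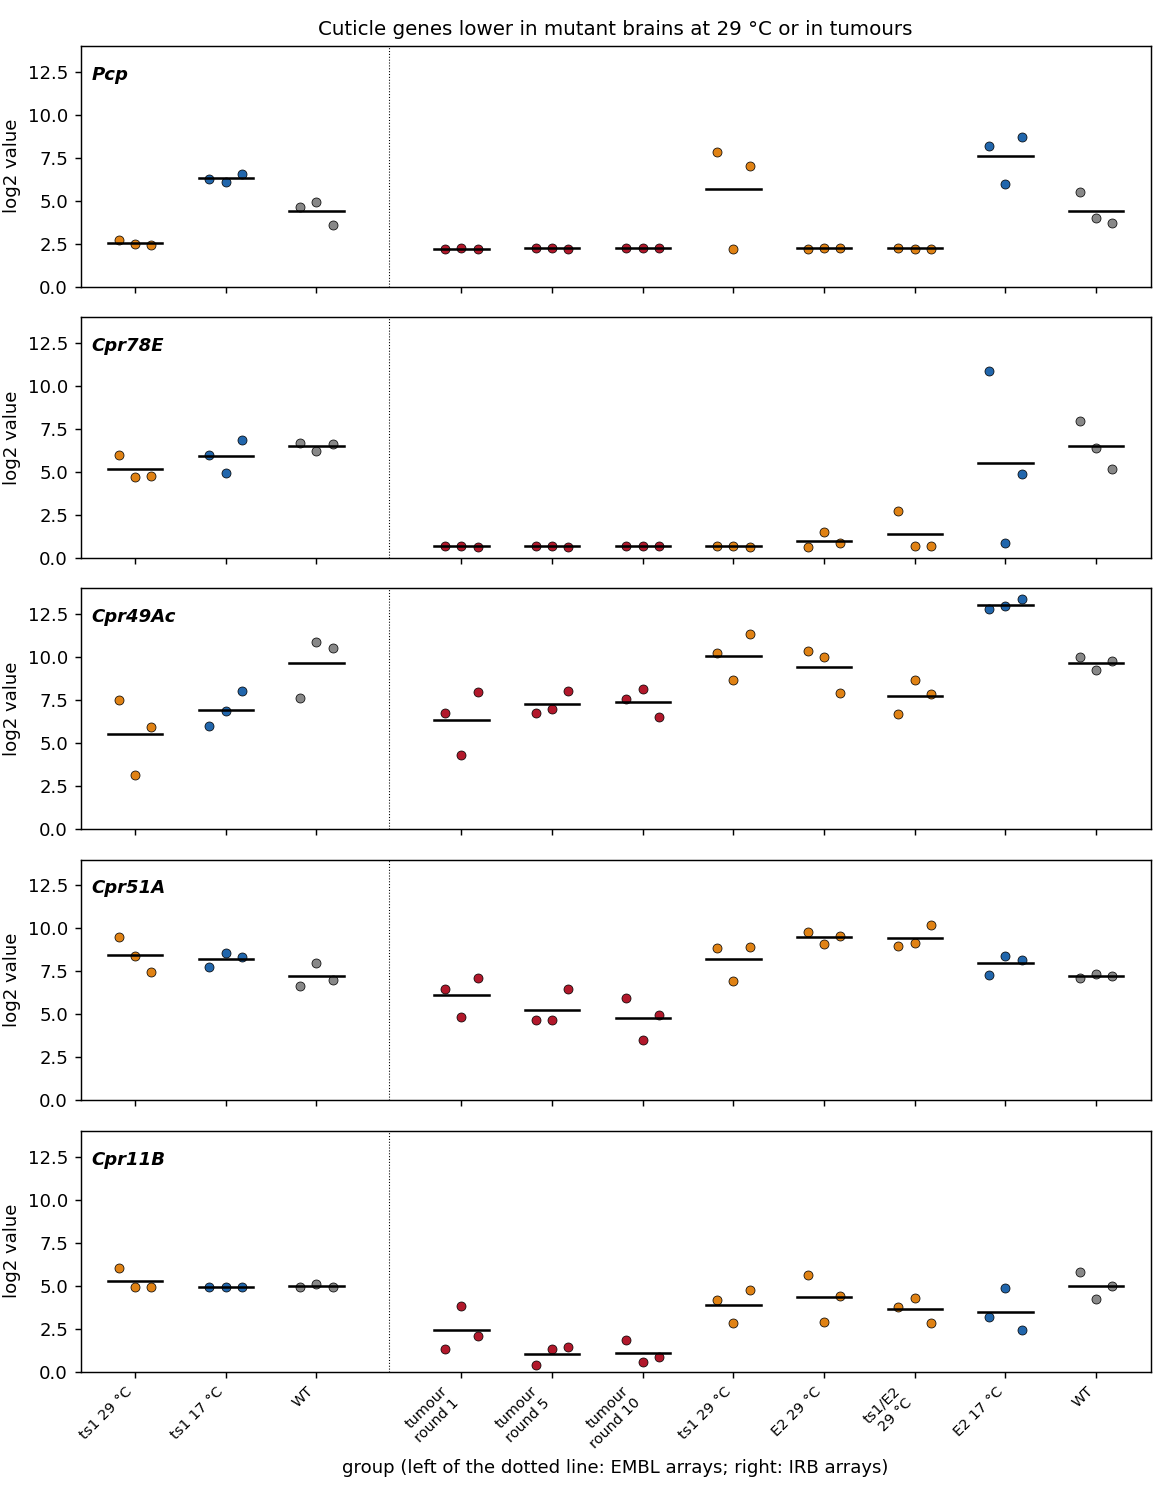
Deposited log2 values (vertical axis, near background below about 4) of Pcp, Cpr78E, Cpr49Ac, Cpr51A and Cpr11B on each array; points are arrays, bars are group means, EMBL left and IRB right of the dotted line. Pcp is low in E2 and EMBL ts1 brains at 29 °C against 17 °C, and Cpr78E is at 0.61 to 2.74 in all IRB mutant brains from 29 °C and tumours against 5.19 to 7.93 in IRB WT.

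Cpr67Fa2 was called in 1 comparison, ts1 brains at 29 °C at IRB, with 5.21, 5.84 and 8.21, against 2.37, 3.57 and 3.55 in WT (3.25 ± 1.01, adjusted p = 0.0389). The call was lost without ts1 replicate 6 (2.36) or any WT array, and under most other settings. A further probe set that names both Cpr67Fa2 and its copy Cpr67Fa1 was over 4 on 1 array. Cpr11A, next in mean level among the Cpr genes after Cpr49Ac and Cpr51A, was called nowhere and ranged from 3.83 to 8.20. The 13 tested genes that were called nowhere are given by their mean. That mean level was 7.43, 2.92 and 3.72 in E2 brains at 29 °C, 4.08, 3.71 and 5.37 in the IRB ts1 brains at 29 °C and 2.59, 4.67 and 4.74 in ts1/E2 brains, against 2.59, 3.18 and 3.63 in IRB WT. On the 9 EMBL arrays that mean stayed between 3.11 and 3.18. Among them Cpr47Eb, named here after its values were seen, reached 10.58 on ts1/E2 replicate 3 and 6.20 on ts1/E2 replicate 2, against 1.999 to 3.19 in IRB WT (3.53 ± 1.34, adjusted p = 0.123). Ring gland markers, 4 of 5 on the array, had the same order there, at 3.39, 4.30 and 9.63 in ts1/E2 replicates 1 to 3, against 3.48 to 3.56 in IRB WT, and their part was not tested.

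The enzymes that build and remodel chitin were read from a list of their own. Of its 35 genes for chitin and cuticle assembly, 32 were on the array and 24 tested. Against WT, the ts1 brains at 29 °C had 1 called higher (Cht7) and 2 lower (kkv and Idgf6) at IRB and 1 lower at EMBL (Cht5), where 8.79% and 6.76% of all tested genes were called. E2 brains at 29 °C had 2 higher (knk and Cht7, all genes 9.06%), and ts1/E2 brains had 1 lower (Cht5, all genes 5.87%), a chitinase gene active at moults. These shares are near the background. Cht5 was at 1.70, 1.85 and 2.02 in ts1/E2 brains and 1.41 to 2.11 in all tumours, against 5.08, 5.85 and 7.59 in IRB WT. The chitin synthase gene kkv was low in the IRB ts1 brains at 29 °C (2.31, 2.95 and 2.36), against 7.01, 6.20 and 5.46 in WT (-3.68 ± 0.79, adjusted p = 3.45e-03). At EMBL it was not (7.63, 6.72 and 7.15, against 6.44, 7.68 and 4.54 in WT), and the contrast between the sites was called (-4.62 ± 1.11, adjusted p = 0.0173). Tumours had 5 of 24 higher and 5 lower at round 1, 2 and 6 at round 5, and 3 and 5 at round 10, beside 27.0%, 26.6% and 25.8% of all tested genes, so the counts are no result about the list. In tumours the chitinase gene Cht7 was higher at every round, while Cht5 and Cht10 were lower at every round.

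The tanning and pigment list, enzymes that harden and colour cuticle, held 14 genes, with 11 on the array and 9 tested. The straw gene (stw), a laccase that cross-links cuticle, was higher than WT in all 29 °C brains, in E2 brains at 17 °C and in tumours of every round. It read 9.42, 8.71 and 8.66 in E2 brains at 29 °C, against 6.12, 5.21 and 5.06 in IRB WT (3.46 ± 0.41, adjusted p = 1.64e-06). The yellow family gene yellow-h read 9.82, 10.32 and 10.97 in EMBL ts1 brains at 29 °C, against 4.63, 5.55 and 6.05 in WT (4.96 ± 0.49, adjusted p = 9.72e-08). It was also higher than WT in E2 and ts1/E2 brains at 29 °C and in round 1 tumours, and lower at round 10 than at round 1 (-3.27 ± 0.49, adjusted p = 6.30e-05). The IRB ts1 brains read 4.32, 3.59 and 4.60, and the contrast between the sites was -6.20 ± 0.69 (adjusted p = 3.57e-06). Lcp9, given above, was likewise higher in EMBL ts1 and E2 brains at 29 °C and in round 1 tumours, while its ts1/E2 difference and its site contrast missed the threshold. In tumours, 5 of the 9 were lower than WT at every round, namely ple, Ddc, e, speck and Pu, which serve dopamine synthesis and turnover. At each round 2 were higher, stw with yellow-h at round 1 and stw with the cuticle pigment gene y at rounds 5 and 10. These 7 of 9 at each round stand beside 27.0%, 26.6% and 25.8% of all tested genes called.

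Of 18 ecdysone timing genes, 15 were on the array and 14 tested. The ts1/E2 brains had 1 lower than WT, Sox14 (all genes 5.87%). It read 6.09, 2.88 and 3.59, against 9.02, 8.59 and 9.85 in IRB WT (-4.97 ± 1.09, adjusted p = 4.18e-03). Tumours had 1 higher (ftz-f1) and 2 or 3 lower at each round, Sox14 among the lower ones. Beside these stand 27.0%, 26.6% and 25.8% of all tested genes at rounds 1, 5 and 10, so the tumour counts are no result about the list. The EMBL ts1 brains at 29 °C had 2 lower than WT, Eip78C and Eip93F (all genes 6.76%).

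Markers of cuticle-secreting tissue were read on the same arrays. Of 9 epidermal genes 8 were on the array, and their mean level was 4.96, 5.55 and 4.95 in E2 brains at 29 °C, 4.58, 4.85 and 4.75 in ts1/E2 brains, 5.07, 5.36 and 5.24 in round 1 tumours and 5.35, 5.24 and 4.90 in the IRB ts1 brains, against 4.73, 4.81 and 4.68 in IRB WT. Of the 5 tested, 1 was called higher in E2 and IRB ts1 brains at 29 °C (ovo) and 2 or 3 in tumours, where 2 were lower. Of all tested genes, 9.06% and 8.79% were called in these brains, and 27.0%, 26.6% and 25.8% in tumours of rounds 1, 5 and 10. The tracheal and neuronal counts in tumours below stand beside the same tumour shares. The genes sha and zye, which shape epidermal hairs and denticles, were under 4 on all arrays. In contrast, grh read 8.37, 8.94 and 8.62 in IRB WT brains, so the list mean rests much on it. Whether grh reads epidermis in a brain sample was not tested, so the list mean is no measure of epidermis alone. The part of epidermis in the cuticle gene values was not tested. Tracheal markers, 6 of 8 on the array, had mean levels of 3.59 to 5.74 over all arrays, and of the 5 tested 1 (uif) was called higher than WT in round 5 and round 10 tumours. Of the brain itself, the neuronal markers (4 of 5 on the array) had mean levels of 8.97 to 9.92 in E2 and ts1/E2 brains at 29 °C and 5.71 to 7.55 in tumours, against 9.39 to 9.57 in IRB WT. Of these 4, 2 were called lower than WT at round 1, 3 at round 5 and 4 at round 10, with Syn under 4 on all arrays of rounds 5 and 10. The neuronal gene elav read 8.34 to 13.32 on all arrays, and the glial gene repo 9.52 to 11.71 in all brains and 6.34 to 7.77 in tumours. The l(3)mbt transcript averaged 7.52 in WT and was called higher than WT in round 5 and round 10 tumours and lower in none, and no mutant brain group differed from WT by a call.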

How the data were processed

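Total RNA from larval brains and tumours was hybridised to Affymetrix Drosophila arrays, 1 per sample. The deposited log2 values were made with GCRMA, per the submitters' processing notes. Per the deposited values, the WT means of the 2 sites are equal for all 18952 probe sets (largest difference 6.7e-09), a centring that the labels do not describe. Arrays have no read depth, and their number limits the precision.

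Each gene was read from the probe set with the highest mean among the 13647 annotated to 1 gene. Probe sets with several genes (402) or not listed (4903) were not used for a named gene. Neighbouring genes are those of the RefSeq annotation of Release 6 plus ISO1 MT. Differences were fitted with limma 3.58.1 in R 4.3.3 as 11 group-by-site means over all 33 arrays, with empirical Bayes moderation and Benjamini-Hochberg adjustment over 8264 genes, and the fit was tested on simulated data. Group-by-site means were used because a shared site term would absorb some of the ts1 difference between sites. SEs against WT hold no spread between sites.

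The cuticle genes, lists and markers were chosen with earlier results of these data known. The text names up to 8 called cuticle genes each way per comparison, up to 3 of the highest mean per family, and called list genes. Same-numbered arrays did not deviate together (0 of 9 pairs of groups with every correlation over 0.1), so numbers were not used as pairs. Alternatives were a site term, a fit per site, other filters, the mean of a gene's probe sets, renewed quantile normalization, 5 arrays left out, a replicate block, each array left out, and a floor at 4.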

Additional observations from a re-analysis of the deposited data

Results flagged for a closer look

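In the ts1 brains at 29 °C, whose 6 arrays span both sites, 5 cuticle genes had 1 array far from the nearest other. Cpr66D read 8.52 on ts1 replicate 5, Cpr11A 7.24 and Lcp65Ag3 6.36 on ts1 replicate 6, Lcp65Ad 4.46 on ts1 replicate 4 and Lcp9 7.55 on ts1 replicate 2, the last at EMBL and the others at IRB. These were 5 of 36 groups of 6 arrays examined, and chance marks about 1 in 20. The ts1 effect on TwdlK differed between the sites, by 3.85 on the log2 scale.

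Probe sets that name more than 1 gene were left out of the comparisons, and 4 of them exceeded 4 on an array outside WT. The probe set of Lcp65Ag1 and Lcp65Ag2 reached 9.02 on round 10 replicate 2, the array on which Lcp65Ag3 was highest. Of the 2 probe sets shared by the odorant-binding protein gene Obp57d and Cpr57A, 1 reached 6.83 on E2 replicate 3 at 17 °C. The other reached 8.45 on E2 replicate 1 at 29 °C and read 7.72, 6.25 and 7.63 in the IRB ts1 brains at 29 °C, against 2.35, 2.52 and 3.84 in IRB WT. At EMBL it read 2.85, 2.82 and 2.88 in the ts1 brains at 29 °C, against 2.85, 2.88 and 2.97 in WT. A contrast between the sites was not tested for this probe set. The probe set of Cpr67Fa2 and Cpr67Fa1 read 4.38 on E2 replicate 1 at 29 °C.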

How the results depend on the processing

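Of the 63 named differences, none reversed under any alternative. They lost their call in 13 of 62 with a site term and 11 of 62 in a fit per site. Calls lost were 5 each without the low-value filter and with renewed quantile normalization, and 5 of 47 with the replicate block. A floor at 4, chosen after seeing the data, ended 28. Leaving out 5 arrays ended 7. These were E2 replicate 1 and ts1 replicates 3 and 6 at 29 °C, and E2 replicate 2 and ts1 replicate 2 at 17 °C. The arrays with most cuticle genes in tumours and ts1/E2 brains stayed in, so this setting does not test the shared array pattern. A filter at 6 and the mean of a gene's probe sets ended no call. The site term changed the count of cuticle genes called to 0 in E2 brains at 17 °C, 9 in round 5 tumours and 2 in ts1 brains at 29 °C against 17 °C. For E2 brains at 17 °C the count was 1 in a fit per site, 1 after quantile normalization and 0 with the replicate block. Without the 5 arrays the count was 4 for E2 at 29 °C against 17 °C and 4 for the site contrast of ts1, and without the filter the site contrast had 0. With the floor at 4 the counts were 1 for ts1 at 29 °C against WT at each site, 3 for ts1/E2, 5, 2 and 3 for tumours of rounds 1, 5 and 10, 1 for ts1 and 4 for E2 at 29 °C against 17 °C, 0 for the site contrast and 1 for the temperature contrast. The cause of these shifts was not tested. Same-numbered arrays were not shown to be pairs, so the block is given here only.

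With each array left out in turn the counts ranged from 2 to 4 for ts1 at 29 °C against WT at EMBL and 3 to 6 at IRB, 5 to 17 for E2 (5 without E2 replicate 1, 17 without E2 replicate 2), 2 to 6 for ts1/E2 (2 without ts1/E2 replicate 2), 0 to 0 for ts1 and 0 to 2 for E2 at 17 °C, 6 to 8, 4 to 6 and 5 to 6 for tumours of rounds 1, 5 and 10, 3 to 4 for ts1 and 3 to 8 for E2 at 29 °C against 17 °C, 6 to 9 for round 1 tumours against ts1 brains, 3 to 3 for round 10 against round 1, 0 to 4 for the site contrast and 0 to 1 for the temperature contrast. Quantile normalization moved the median difference of all genes by over 0.1 in the E2 and IRB ts1 comparisons at 29 °C, for E2 against WT to -0.07, against -0.21 as deposited. Signal near background limits most of these genes.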
